A study of Mus musculus with 6 samples.

Results

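The genes described here are 10 genes of VEGF, angiopoietin and apelin signalling, taken by symbol from the 31537 gene identifiers listed for either tissue, of which 27514 were listed for both. They comprise the VEGF ligands *Vegfa* and *Vegfc*, the VEGF receptors *Kdr*, *Flt1* and *Flt4*, the Tie-receptor ligand *Angpt2*, the Tie receptors *Tek* and *Tie1*, and the apelin ligand and receptor *Apln* and *Aplnr*. All 10 had UMIs (unique molecular identifiers, 1 per captured RNA molecule) in both tissues. Single-cell RNA sequencing had been performed on the cerebral cortex of 3-week-old mice (prep 1) and on the hippocampus of 5-week-old mice (prep 3), all of them female C57Bl/6J. For each tissue, cells of 3 animals were pooled into 1 suspension and run as 3 technical replicates, which gives 6 libraries. Region, age, preparation and the list of genes counted changed together and the spread between animals was not measured, so no test was made. That list held 31053 genes for the cortex and 27998 for the hippocampus. Every SD is over 3 technical replicates, and every interval in brackets is an exact 95% interval that covers counting error only.

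VEGF-A binds FLT1 and KDR, of which KDR carries most of the signal for endothelial growth and FLT1 acts largely as a trap for the ligand, whereas VEGF-C signals through FLT4 and, after processing, KDR. ANGPT2 binds TEK (also called TIE2), mostly as a context-dependent antagonist of ANGPT1, and TIE1 is an orphan partner of TEK. Apelin, the product of *Apln*, acts on the G protein-coupled receptor APLNR and is known as a marker of sprouting endothelial tip cells, whereas ligands such as VEGF-A reach the brain endothelium from neighbouring cells.

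A total of 13318 cortical and 14209 hippocampal cells passed the quality limits, with median depths of 5800 to 5910 and 6632 to 6914 UMIs per cell in the replicates. Cells were clustered with the 10 genes left out, and clusters were called "-like" from a fixed list of marker genes. In the cortex this gave 2688 endothelial-like, 207 pericyte-like, 169 vascular smooth muscle (VSMC)-like, 77 fibroblast-like, 2704 astrocyte-like, 66 oligodendrocyte-like, 6175 microglia-like, 169 macrophage-like, 22 T/NK-like and 341 erythroid-like cells. The hippocampus gave 1867 endothelial-like, 448 pericyte-like, 89 VSMC-like, 51 fibroblast-like, 1975 astrocyte-like, 1076 oligodendrocyte-like, 260 oligodendrocyte precursor (OPC)-like, 507 neuron-like, 5908 microglia-like and 226 macrophage-like cells, and also ependymal-like and choroid plexus epithelial-like cells. All 14 endothelial markers were detected in the endothelial-like cells of both tissues. Between 22 and 33 cell barcodes in a cortical library and between 283 and 330 in a hippocampal library also occurred in another library of that tissue, in the hippocampus mostly in the epithelial-like cells, and 10 cortical and 3 hippocampal endothelial-like cells carried one. Leaving out the cells with such a barcode changed none of the calls of the 10 genes.

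The 10 genes lie on GRCm38 at chr17:46016993-46032369 (*Vegfa*, minus strand), chr8:54077606-54187096 (*Vegfc*, plus), chr5:75932827-75978458 (*Kdr*, minus), chr5:147561604-147726011 (*Flt1*, minus), chr11:49609263-49652739 (*Flt4*, plus), chr8:18690263-18741562 (*Angpt2*, minus), chr4:94739289-94874976 (*Tek*, plus), chr4:118471191-118490061 (*Tie1*, minus), chrX:48025146-48034853 (*Apln*, minus) and chr2:85136225-85139923 (*Aplnr*, plus). No exon of them overlaps an exon of another gene annotated by GENCODE. Upstream sequences are shown for a pair of receptors with most of their UMIs in endothelial-like cells (*Flt1*, *Tek*) and a pair of ligands with most or many of theirs in astrocyte-like cells (*Vegfa*, *Apln*). Each is the 250 bases before the start of the gene, 5′ to 3′ on the gene's own strand, from RefSeq on GRCm38.p6, with GGAA or its complement TTCC in capitals. GGAA is the core letters bound by ETS-family factors, several of which act in endothelial cells. The windows lie at chr5:147726012-147726261 (minus strand) for *Flt1*, chr4:94739039-94739288 (plus strand) for *Tek*, chr17:46032378-46032627 (minus strand) for *Vegfa* and chrX:48034854-48035103 (minus strand) for *Apln*.
Flt1: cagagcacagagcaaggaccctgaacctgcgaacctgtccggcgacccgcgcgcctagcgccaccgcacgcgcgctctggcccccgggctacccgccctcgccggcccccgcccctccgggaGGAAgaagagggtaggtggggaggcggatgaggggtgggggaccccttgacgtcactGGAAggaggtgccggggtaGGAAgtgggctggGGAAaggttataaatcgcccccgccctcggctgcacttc
Tek: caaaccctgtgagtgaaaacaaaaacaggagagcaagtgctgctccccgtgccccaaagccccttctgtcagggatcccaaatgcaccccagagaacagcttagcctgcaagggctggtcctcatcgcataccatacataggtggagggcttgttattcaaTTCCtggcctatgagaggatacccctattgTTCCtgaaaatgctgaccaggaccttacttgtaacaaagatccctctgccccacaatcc
Vegfa: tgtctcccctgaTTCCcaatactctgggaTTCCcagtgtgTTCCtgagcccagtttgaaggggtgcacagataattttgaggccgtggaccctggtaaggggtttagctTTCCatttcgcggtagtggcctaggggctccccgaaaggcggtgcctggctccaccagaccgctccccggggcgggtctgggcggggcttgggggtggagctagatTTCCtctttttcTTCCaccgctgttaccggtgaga
Apln: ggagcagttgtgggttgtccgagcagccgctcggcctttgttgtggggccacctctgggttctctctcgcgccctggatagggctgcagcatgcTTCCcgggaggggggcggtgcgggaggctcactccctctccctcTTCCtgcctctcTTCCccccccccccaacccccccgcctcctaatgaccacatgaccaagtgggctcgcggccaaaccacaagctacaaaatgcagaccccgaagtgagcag
The core occurred 4 times upstream of *Flt1*, 2 times upstream of *Tek*, 6 times upstream of *Vegfa* and 3 times upstream of *Apln*. Promoters were matched by symbol for 8 of the 10 genes, not for *Angpt2* or *Aplnr*, and the other 4 held 1 (*Vegfc*), 4 (*Kdr*), 2 (*Flt4*) and 7 (*Tie1*) copies. Of 32817 promoters of the same length, 93.4% held at least 1 copy on either strand, 33.4% at least 4 and 3.82% at least 7, so that the counts of *Flt1* and *Kdr* are common ones. ACGTG, the core letters bound by hypoxia-inducible factors, was in none of the 8 windows and in 16.6% of all promoters.

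The 6 receptor genes were highest in endothelial-like cells in both tissues. Levels are given as CPM, the summed UMIs of a gene relative to the summed UMIs of all genes in the class, where 10000 CPM is 1% of them. *Kdr* stood at 791, 760 and 742 CPM in the 3 cortical replicates and at 670.3, 675 and 652 CPM in the 3 hippocampal ones. *Flt1* stood at 2310, 2355 and 2298 CPM in the cortex and at 3154, 3017 and 3116 CPM in the hippocampus. The VEGF-C receptor gene *Flt4* was detected at 64.7 ± 4.82 CPM (SD, n = 3) and 64.4 ± 2.48 CPM (SD, n = 3). *Flt4* is known best from lymphatic endothelium, and its UMIs here came from cells that carried the blood-vessel endothelial markers of the brain.

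The Tie and apelin receptors were likewise highest in endothelial-like cells. *Tek* was 338, 325 and 301 CPM in the cortical replicates and 410.0, 396 and 395 CPM in the hippocampal ones. *Tie1* was 256, 222 and 193 CPM in the cortex, the widest relative spread among the 6 receptors there, and 325, 325 and 353 CPM in the hippocampus. *Aplnr* was 83.5 ± 2.63 CPM (SD, n = 3) and 45.8 ± 1.78 CPM (SD, n = 3). All 6 receptor genes, and none of the 4 ligand genes, were at least 4 times as high in endothelial-like cells as in every other named class, in each tissue. Of all genes with at least 30 UMIs, 1.57% met that rule in the cortex and 1.39% in the hippocampus.

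**Figure D1:**
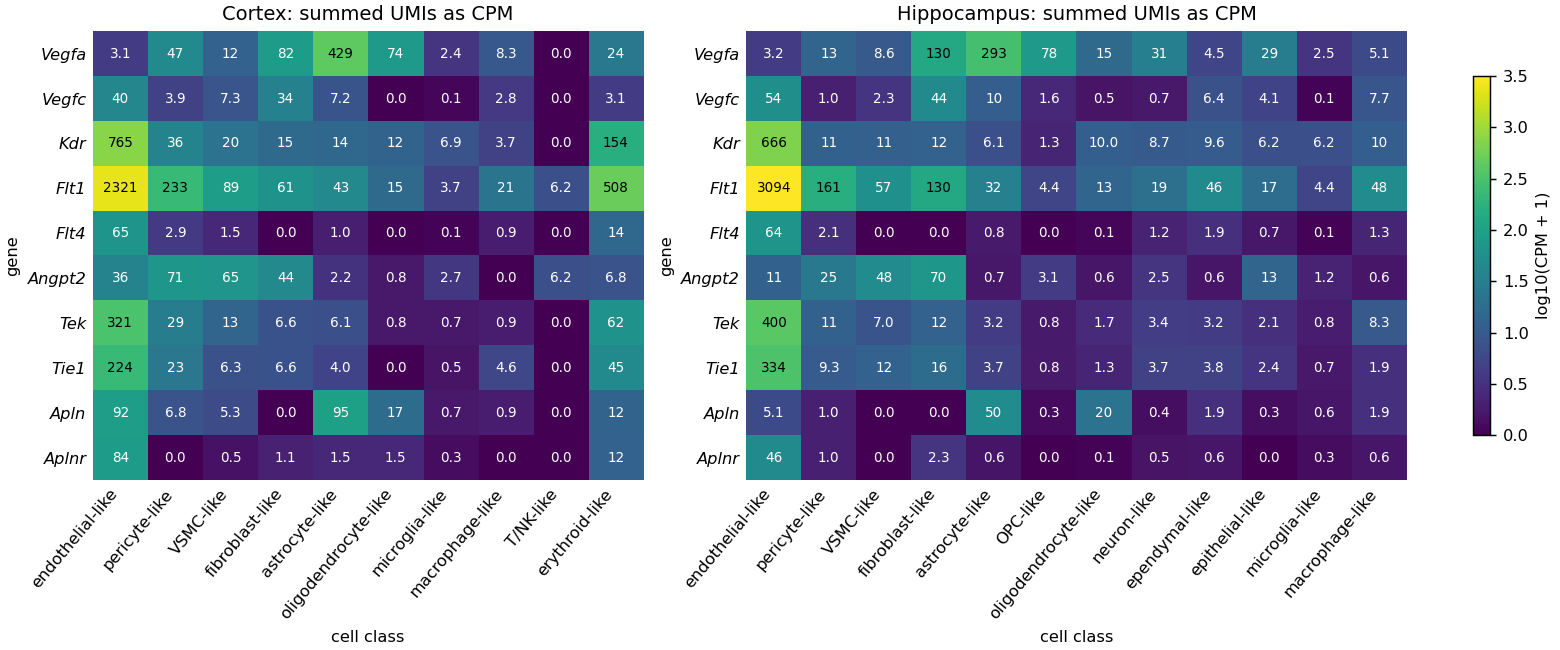
Level of the 10 genes by cell class in the cortex (left) and the hippocampus (right), with CPM printed in each cell and colour on the scale log10(CPM + 1). The receptors peak in the endothelial-like column, *Vegfa* peaks at 429 and 293 CPM in astrocyte-like cells, and *Angpt2* is spread over endothelial-like, mural and fibroblast-like cells.

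The margin over the next class differed between the tissues. In the hippocampus the receptors were from 19.2-fold (*Flt1*, over pericyte-like cells) to 57.3-fold (*Kdr*, over fibroblast-like cells) higher in endothelial-like cells. In the cortex they were only 4.53-fold (*Flt4*) to 7.19-fold (*Aplnr*) higher, and the next class was the erythroid-like one for each of them. A single erythroid-like cluster of 95 cells also carried endothelial markers, and without it the 6 cortical margins were 9.58-fold to 53.9-fold. The cortical count of 6 depended on the clustering. It was 1 at a resolution of 0.2, where VSMC-like cells came next for all 6 receptors, and 3 at 1.0 and 2 without integration of the replicates, where a neuron-like class came next for most of them, whereas *Flt4* alone dropped out, at 3.92-fold, without cortical replicate 1.

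Endothelial-like cells held between 93.7% (*Kdr*) and 95.7% (*Aplnr*) of all UMIs of a receptor over named cortical cells, and between 93.4% (*Kdr*) and 96.8% (*Tek*) in the hippocampus. These shares depend on how many cells of each class were captured. The small remainder was compared with the summed UMIs of the 14 endothelial markers in the same cells, as a rough guide to their endothelial RNA. This guide was not even across classes. In cortical astrocyte-like cells, *Kdr* was 13.7 against 765 CPM in endothelial-like cells and *Flt1* 43.3 against 2321 CPM. Both were lower, as percent of the endothelial-like level, than the markers. Whether a class makes some of the markers itself was not tested. A receptor stood above the marker level in a class where its percent of the endothelial-like level exceeded that of the summed markers.

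*Flt1* in pericyte-like cells was above the marker level in both tissues. Its 3 cortical replicates were 162, 260.7 and 259 CPM and its hippocampal ones 121, 204 and 156 CPM, from 239 and 313 UMIs. That was 10.1% of the endothelial-like level where the markers stood at 6.24%, and 5.21% where the markers stood at 3.13%, a ratio of 1.61 and 1.66. In the cortex *Tie1* (10.4%) and *Tek* (9.11%) were also above the marker level in these cells, but in the hippocampus they were slightly below it, at 2.78% and 2.83%. *Kdr* was below the marker level in both tissues, at 4.72% and 1.70%. In pericyte-like cells without any endothelial marker UMI, only 4 UMIs of *Flt1* in 31 cells and 7 UMIs in 58 cells remained. These were too few to give a level with any precision. Called doublets, which were kept, made up 10.1% and 11.6% of pericyte-like cells, against 3.76% and 2.62% of endothelial-like cells. Under the alternatives, the cortical pericyte-like *Flt1* level ran from 143 to 260 CPM.

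*Kdr* was above the marker level in microglia-like cells and in hippocampal oligodendrocyte-like cells. Microglia-like cells had 8.98, 6.07 and 5.72 CPM of *Kdr* in the cortex and 6.00, 6.55 and 5.88 CPM in the hippocampus, from 242 UMIs in 216 cells and 253 UMIs in 227 cells. That was 0.903% and 0.924% of the endothelial-like level against 0.286% and 0.297% for the markers, whereas *Flt1* stood at 0.159% and 0.141%. Among the 4084 cortical and 3293 hippocampal microglia-like cells without an endothelial marker UMI, *Kdr* was 6.49 CPM [5.48, 7.64] and 5.97 CPM [5.00, 7.08]. Hippocampal oligodendrocyte-like cells had 9.95 CPM of *Kdr* (234 UMIs in 161 cells), 1.49% of the endothelial-like level against 0.373% for the markers, and 7.80 CPM [6.32, 9.52] in the 582 cells without a marker UMI. In astrocyte-like cells without a marker UMI, *Kdr* had no UMI in 397 cortical cells and 1 UMI in 335 hippocampal cells. Those were small parts of the 2704 and 1975 astrocyte-like cells. Without a level, their counts cannot be set against the levels above. Both excesses of *Kdr* are therefore low levels, near 1% of that in endothelial-like cells, and their origin was not tested.

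**Figure D2:**
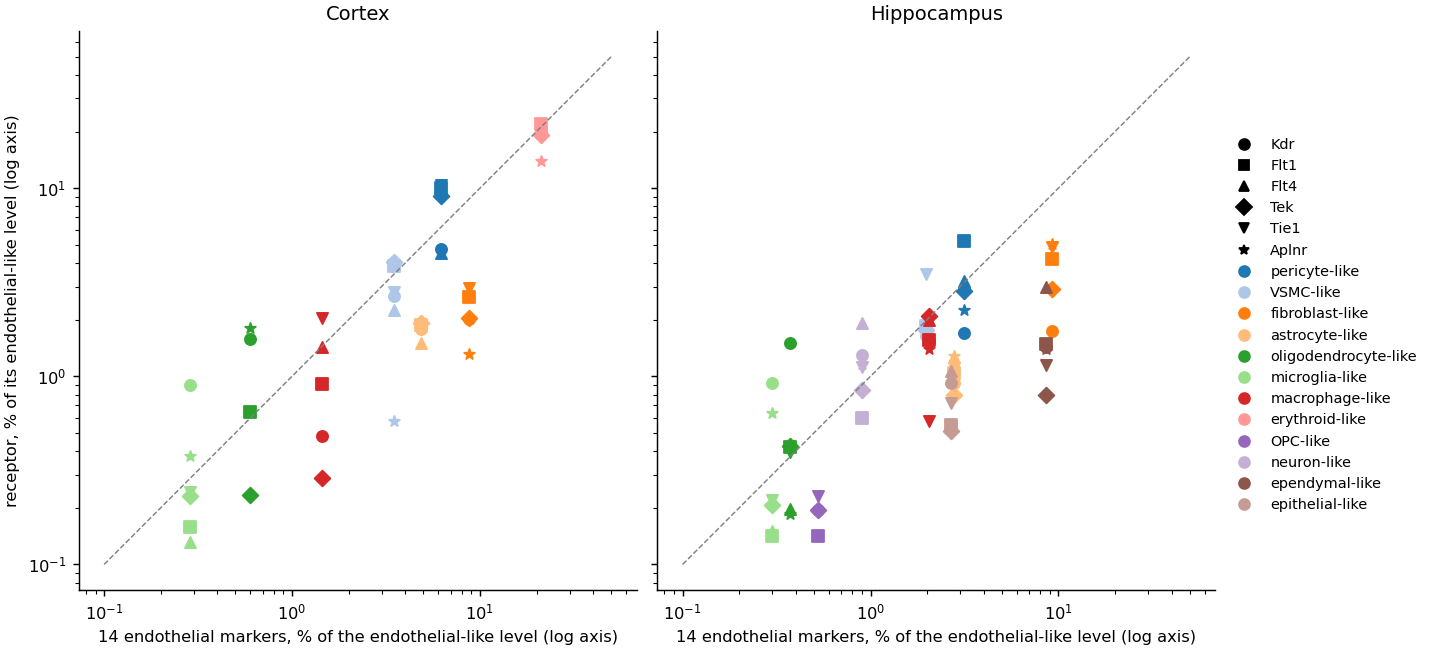
Level of each receptor gene outside endothelial-like cells (y axis, percent of its level in endothelial-like cells, log scale) against the summed level of 14 endothelial markers in the same class (x axis, percent of theirs, log scale). Points on the dashed line have the same percent for the receptor as for the markers, while *Kdr* in microglia-like cells (0.903% and 0.924% against 0.286% and 0.297%) and *Flt1* in pericyte-like cells lie above it, and values of 0 and the T/NK-like class are not drawn.

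The ligand genes had different sources from the receptors and from each other. *Vegfa*, the principal ligand of both KDR and FLT1, was highest in astrocyte-like cells, at 421, 419 and 450.3 CPM in the cortical replicates and 319, 275 and 285 CPM in the hippocampal ones. In endothelial-like cells it was 3.09 and 3.25 CPM. The class with the most of this ligand was thus not the class with its receptors. Astrocyte-like cells held 93.6% of its UMIs over named cortical cells and 77.2% over named hippocampal cells. The astrocyte-like level was 5.21 times that of the next class in the cortex, a margin of 4 that 2.96% of all genes met there, but 2.25 times in the hippocampus, which did not meet it (1.07% of genes did).

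Other classes also carried *Vegfa*. Fibroblast-like cells came next, at 82.4 CPM in the cortex and 130.1 CPM in the hippocampus, but this order was not resolved. Cortical oligodendrocyte-like cells had 124, 29.0 and 71.2 CPM, with 30 of 99 UMIs in 1 cell, against 57.0, 101 and 85.8 CPM in fibroblast-like cells. Hippocampal fibroblast-like replicates (265, 56.2 and 142 CPM) overlapped those of OPC-like cells. Hippocampal OPC-like cells had 84.6, 92.2 and 52.3 CPM, neuron-like cells 31.2 CPM and oligodendrocyte-like cells 15.2 CPM, and these classes held 5.82%, 3.41% and 6.94% of its hippocampal UMIs. Microglia-like cells, the most numerous class in both tissues, had only 2.43 and 2.51 CPM. Pericyte-like cells had 46.9 CPM in the cortex, where 27 of 48 UMIs came from 1 cell.

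*Vegfa* also varied among the astrocyte-like clusters, whereas *Apln* hardly did in the cortex. The cortical clusters of 1793, 874 and 37 cells had 474, 105 and 288 CPM of *Vegfa* but 95.4, 95.2 and 97.9 CPM of *Apln*. Their median depths were 7835, 1683.5 and 15775 UMIs, so the cluster low in *Vegfa* was also the shallowest. In the hippocampus, the cluster of 93 cells had 643 CPM of *Vegfa*, above the 326 CPM of the largest cluster (1301 cells), while clusters of 498 and 83 cells had 69.3 and 46.8 CPM. Their *Apln* levels were 32.1, 53.6, 46.2 and 4.93 CPM, and their median depths 2906, 7861, 1560.5 and 9255 UMIs, in the same order. The part of depth in these differences was not tested. The hippocampal cluster with the most *Vegfa* was therefore not the one with the most *Apln*.

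*Vegfc* was an endothelial-like transcript in both tissues. Its level in endothelial-like cells was 36.5, 44.5 and 39.5 CPM in the cortex and 50.9, 56.7 and 53.4 CPM in the hippocampus, and these cells held 83.0% and 78.6% of its UMIs. Fibroblast-like cells were close, at 11.4, 35.0 and 49.8 CPM in the cortex and 133, 22.5 and 23.6 CPM in the hippocampus, with 10 of 19 hippocampal UMIs in 1 cell. The replicates of the 2 classes overlapped in both tissues, so their order was not resolved. Astrocyte-like cells held 10.8% and 13.4% of the *Vegfc* UMIs, and microglia-like cells had 0.14 and 0.07 CPM.

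*Angpt2* was the ligand gene spread over the most vascular classes. In the cortex, pericyte-like cells had 57.6, 79.6 and 73.3 CPM and VSMC-like cells 71.5, 57.3 and 66.3 CPM, which overlapped each other, whereas fibroblast-like cells, at 53.2, 31.5 and 47.1 CPM, were lower than both in every replicate. Endothelial-like cells, at 40.0, 33.6 and 33.1 CPM, were also lower than both mural classes in every replicate but held 67.4% of the UMIs, being 2688 cells against 207 and 169. In the hippocampus, the order was fibroblast-like (84.3, 67.5 and 64.9 CPM), VSMC-like (66.6, 32.7 and 43.8 CPM), pericyte-like (37.6, 22.04 and 14.4 CPM) and endothelial-like cells (12.6, 9.71 and 10.9 CPM), with overlap between the replicates of fibroblast-like and VSMC-like cells and of VSMC-like and pericyte-like cells. Endothelial-like cells held 37.5% of the hippocampal UMIs. Microglia-like cells had 2.74 and 1.22 CPM of *Angpt2*, 96 UMIs in 96 cells and 50 UMIs in 50 cells, so no microglia-like cell held more than 1.

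Astrocyte-like cells were a source of *Apln* in both tissues, whereas endothelial-like cells stood at a like level only in the cortex. Cortical astrocyte-like cells had 94.6, 99.6 and 91.8 CPM and endothelial-like cells 97.4, 97.7 and 80.5 CPM, which overlapped. In the hippocampus, astrocyte-like cells had 43.5, 55.8 and 49.5 CPM and oligodendrocyte-like cells 21.96, 20.2 and 18.7 CPM, but endothelial-like cells only 10.6, 2.29 and 2.47 CPM. Endothelial-like cells held 55.3% of *Apln* UMIs in the cortex and 6.08% in the hippocampus, astrocyte-like cells 41.8% and 53.2%, and hippocampal oligodendrocyte-like cells 37.8%. Without replicate 1 the hippocampal endothelial-like share of *Apln* was 2.95%, and it was up to 10.8% under other ways of classing the cells. An unnamed hippocampal cluster of 268 cells with endothelial markers, which held 61 *Apln* UMIs, is not in the 6.08%. The oligodendrocyte-like signal was spread over many cells, with 478 UMIs in 319 of 1076 cells. Cortical oligodendrocyte-like cells, only 66 in number, had 16.5 CPM from 22 UMIs, against 20.3 CPM over the hippocampal ones.

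**Figure D3:**
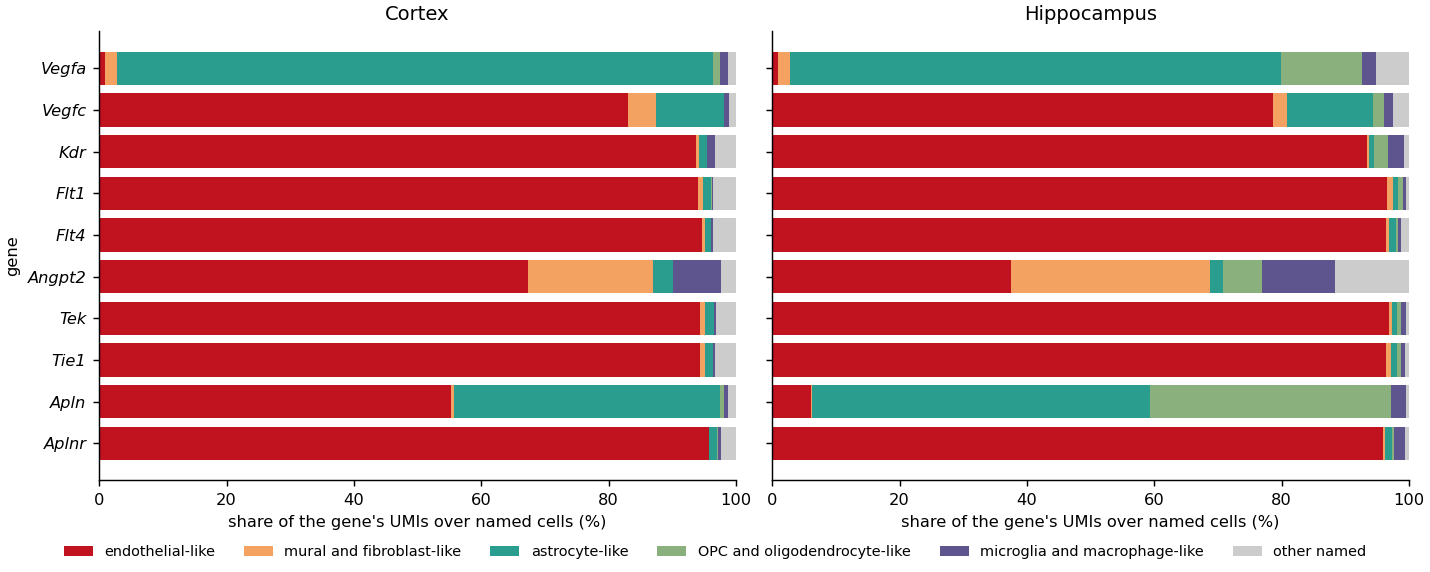
Share of each gene's UMIs over named cells by group of cell classes (stacked to 100%), cortex and hippocampus. The 6 receptors come almost wholly from endothelial-like cells, *Vegfa* from astrocyte-like cells (93.6% and 77.2%), and the endothelial-like share of *Apln* goes from 55.3% in the cortex to 6.08% in the hippocampus (2.95% without replicate 1).

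The share of cells with a UMI was compared after thinning each cell to 1000 UMIs, since depth differed between classes (median 7066 UMIs in cortical endothelial-like cells but 21262 in hippocampal oligodendrocyte-like cells). *Kdr* was detected in 51.9% ± 1.05 (SD, n = 3) of cortical and 48.7% ± 2.04 (SD, n = 3) of hippocampal endothelial-like cells, against 0.705% and 0.561% of microglia-like and 0.471% and 0.433% of astrocyte-like cells. Without thinning these were 95.3% and 93.8% of endothelial-like and 3.498% and 3.84% of microglia-like cells. *Flt1* was detected in 88.7% and 93.1% of endothelial-like cells, against 0.393% and 0.459% of microglia-like cells, and in 16.7% [11.6, 22.8] and 12.3% of pericyte-like cells. Median depths were 4199 and 4461 UMIs in pericyte-like and 5471 and 6644 in microglia-like cells. Pericyte-like cells also held more of the endothelial markers (6.24% and 3.13% of the endothelial-like level, against 0.286% and 0.297%), so these *Flt1* shares have no like background.

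The ligands were detected in fewer cells. *Vegfa* had a UMI in 27.7% ± 0.268 (SD, n = 3) of cortical and 22.1% ± 1.47 (SD, n = 3) of hippocampal astrocyte-like cells, and in 67.3% and 62.7% without thinning. *Apln* was found in 8.60% and 4.44% of astrocyte-like, 3.79% and 0.214% of endothelial-like, 1.52% and 1.95% of oligodendrocyte-like and 0.0656% and 0.068% of microglia-like cells. The hippocampal endothelial-like share of *Apln* rested on 4 of 1867 cells, with an interval of 0.0584% to 0.548% that overlapped that of the microglia-like background. *Angpt2* was found in 4.84% and 1.26% of pericyte-like and 4.73% and 4.49% of VSMC-like cells, against 0.262% and 0.085% of microglia-like cells.

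Of the 10 genes, *Apln* and *Angpt2* differed most between hippocampal and cortical endothelial-like cells. A gene was called between the tissues when it differed at least 2-fold and every replicate of one tissue lay beyond every replicate of the other. *Apln* was 92.0 ± 9.85 CPM (SD, n = 3) in the cortex and 5.10 ± 4.76 CPM (SD, n = 3) in the hippocampus, 18.0-fold lower [14.4, 22.9]. Of the 77 hippocampal UMIs, 43 came from 1 cell of replicate 1. An unnamed hippocampal cluster of 268 cells, with all 14 endothelial markers but low UMI counts, was left out and held 61 further *Apln* UMIs. Without replicate 1 of both tissues the log2 ratio of hippocampus to cortex was −5.23 in place of −4.17. This ratio ran from −5.23 to −3.75 with 1 replicate left out, and from −5.23 to −3.29 over all alternatives. *Angpt2* was 35.6 ± 3.84 CPM (SD, n = 3) and 11.1 ± 1.47 CPM (SD, n = 3), 3.22-fold lower [2.72, 3.82]. These were the 2 genes of the 10 that were called in endothelial-like cells, both lower in the hippocampus, where 2.84% of all genes tested were called lower, 3.58% higher and 6.42% in either direction.

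The receptors moved less, and not all one way. *Aplnr* was lower in every hippocampal replicate, with a log2 ratio of −0.87 [−0.99, −0.74], short of the 2-fold limit. *Tie1*, *Flt1* and *Tek* were higher in every hippocampal replicate, with log2 ratios of 0.57 [0.52, 0.63], 0.41 [0.40, 0.43] and 0.32, where the median of all genes tested was 0.15. *Kdr* was lower in every hippocampal replicate by a small amount, with a log2 ratio of −0.20. *Flt4* had a log2 ratio of −0.01 and its replicates overlapped. *Vegfc* was higher in every hippocampal replicate, with a log2 ratio of 0.42. Region, age, preparation and the list of genes counted cannot be told apart in any of these differences.

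**Figure D4:**
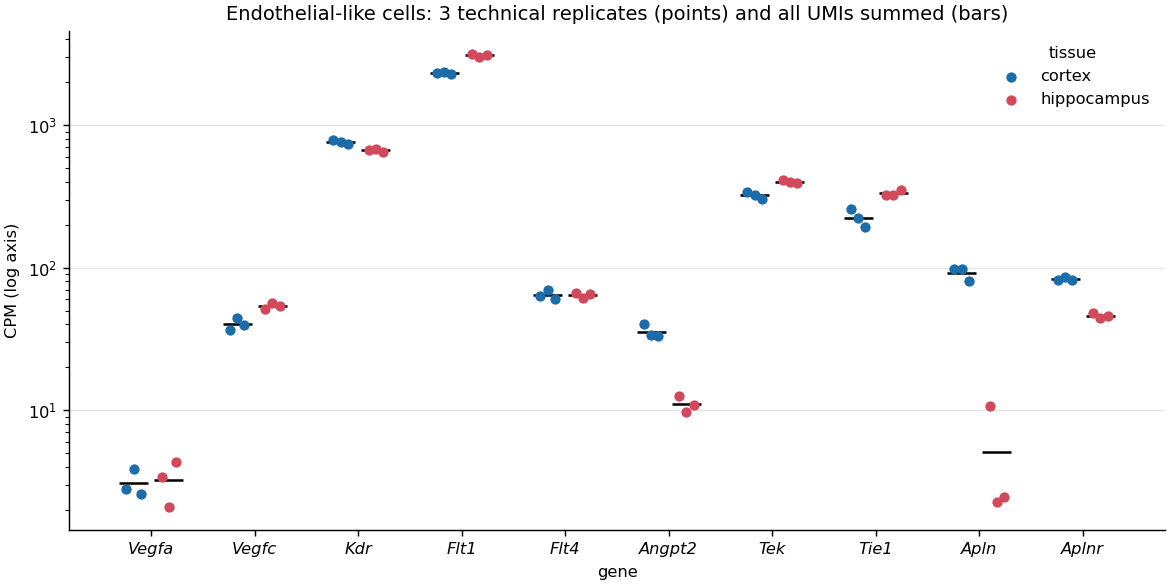
Level of the 10 genes in endothelial-like cells of each technical replicate (points, CPM on a log axis), cortex and hippocampus side by side; the bar is the level from all UMIs summed. *Apln* (92.0 and 5.10 CPM) and *Angpt2* (35.6 and 11.1 CPM) separate the tissues most, whereas *Flt4* overlaps.

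Outside the endothelial-like cells, *Angpt2* was lower in the hippocampus in 3 more classes. In pericyte-like cells its log2 ratio was −1.53 (73 against 48 UMIs), in astrocyte-like cells −1.76 (39 against 9 UMIs) and in microglia-like cells −1.17 (96 against 50 UMIs), each called. Its levels were low in astrocyte-like (2.24 and 0.663 CPM) and microglia-like cells (2.74 and 1.22 CPM), against 35.6 and 11.1 CPM in endothelial-like cells. The part of endothelial RNA in these *Angpt2* calls was not tested. Fibroblast-like cells differed in sign, at 0.67 [−0.07, 1.39], and were not called. *Vegfa* and *Apln* were lower in hippocampal astrocyte-like cells in every replicate, with log2 ratios of −0.55 [−0.61, −0.49] and −0.94 [−1.08, −0.81], without reaching 2-fold. *Kdr* was called lower in astrocyte-like cells (−1.17) and in pericyte-like cells (−1.67), and *Tie1* in pericyte-like cells (−1.34). The 14 endothelial markers moved in the same direction there, from 4.86% to 2.79% of the endothelial-like level in astrocyte-like cells and from 6.24% to 3.13% in pericyte-like cells, and their part in these calls was not tested. Only genes with at least 30 UMIs over both tissues could be called. Of the 10, 9 had these in astrocyte-like cells and 2 were called, where 9.23% of all genes tested were, 3.34% lower and 5.90% higher. In pericyte-like cells 3 of 6 were called, where 8.02% of all genes were, 3.61% lower and 4.41% higher. In microglia-like cells 1 of 7 was called, where 6.04% of all genes were, 2.31% lower and 3.72% higher. None of 5 was called in VSMC-like cells (4.12% of all genes, 2.32% lower and 1.80% higher). Nor were any of 4 in fibroblast-like cells (8.42%, 3.42% lower and 5.00% higher) or the 1 in macrophage-like cells (9.09%, 3.83% lower and 5.25% higher). The microglia-like call was lost without replicate 2, and the pericyte-like count ran from 2 to 4 with 1 replicate left out, with *Tie1* lost each time. Without called doublets, *Kdr* was no longer called in astrocyte-like cells nor *Tie1* in pericyte-like cells. Both endothelial-like calls held with each replicate left out.

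The endothelial-like cells were then clustered again without the 10 genes, to see where along the vessel tree they were found. Arterial-like and venous-like subclusters were named from their markers. *Vegfc* was an arterial-like transcript: it was 201, 268 and 218 CPM in the replicates of the 281 cortical arterial-like cells against 16.2 CPM in the other endothelial-like cells, 14.2-fold higher. In the 447 hippocampal arterial-like cells it was 166, 183 and 157 CPM against 13.01 CPM, 12.97-fold higher. These cells held 63.8% and 82.1% of the endothelial-like *Vegfc* UMIs. *Vegfc* was the single gene of the 10 called higher there at 2-fold, where 4.03% and 2.95% of all genes were called higher.

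*Aplnr*, *Angpt2* and *Apln* were low in arterial-like cells. *Aplnr* was 5.34 CPM against 93.2 CPM in the other cortical endothelial-like cells, 17.5-fold lower, and 8.62 against 59.0 CPM in the hippocampus, 6.84-fold lower. The hippocampal arterial-like subcluster of 183 cells, named from 3 markers, had 34 UMIs of *Aplnr*, and those of 237 and 27 cells had 0. *Angpt2* was 1.91 against 40.0 CPM in the cortex, 20.9-fold lower, and 4.20-fold lower in the hippocampus. *Apln* had 2 UMIs in cortical and 1 in hippocampal arterial-like cells. Of all genes, 6.57% and 5.26% were called lower in arterial-like cells of the cortex and hippocampus. *Kdr* was 555 against 791 CPM and 410 against 757 CPM, lower in both but within 2-fold. The 27 cells of a small hippocampal arterial-like subcluster were farthest along this pattern, with 461 CPM of *Vegfc* and with 127 CPM of *Kdr* against 677 CPM in the others, 5.32-fold lower.

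*Aplnr* was found in venous-like cells, but not in them alone. It was 68.1, 69.7 and 92.3 CPM in the 382 hippocampal venous-like cells against 36.2 CPM in the others, 2.09-fold higher and called (1.57% of all genes), and 109 against 80.3 CPM in the 184 cortical ones, not called. *Angpt2* was called lower in venous-like cells of both tissues, 13.8-fold in the cortex and 7.33-fold in the hippocampus (6.88% and 5.92% of all genes were called lower). *Apln* was 23.2 against 101 CPM in cortical venous-like cells, 4.37-fold lower. *Vegfc* was 6.52-fold lower in hippocampal venous-like cells. Thus neither artery-like nor vein-like cells were the main source of *Apln* or *Angpt2* among endothelial-like cells.

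That endothelial-like source in the cortex was a subcluster of 121 cells, 4.52% of the endothelial-like cells. It carried 5 markers of tip cells and 3 of veins and so was left unnamed. It and the unnamed subclusters that follow were singled out after their *Apln* and *Angpt2* levels were seen. *Apln* was 747, 753 and 846 CPM in its replicates against 29.4 CPM in the other endothelial-like cells, 26.3-fold higher. The subcluster held 70.8% of the endothelial-like *Apln* UMIs, found in 97 of its 121 cells. It had 1555 *Apln* UMIs, against 1663 in astrocyte-like cells and 3980 over all named cortical cells. *Angpt2* was 225, 200.4 and 294 CPM against 17.6 CPM, 13.2-fold higher, and 54.9% of its endothelial-like UMIs were there. *Aplnr*, the receptor of the first, was 190.1, 235 and 296 CPM against 69.7 CPM, 3.35-fold higher. All 3 were called higher, as were 4.35% of all genes. The median depth of these cells was 15762 UMIs, against 7066 for endothelial-like cells as a whole, and CPM are relative to that depth.

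The same cells were low in *Tek* and *Vegfc*. *Tek*, the receptor that ANGPT2 binds, was 110, 56.3 and 80.3 CPM against 344 CPM, 4.16-fold lower, and *Vegfc* had only 3 UMIs, 1.49 against 43.3 CPM. Both were called lower, as were 12.7% of all genes. *Kdr* was higher within 2-fold, at 1046 against 739 CPM, and *Flt1* lower within 2-fold, at 1332 against 2414 CPM. *Flt4* was 79.7 CPM and *Tie1* 217 CPM, near their levels over all cortical endothelial-like cells. A further unnamed subcluster of 238 cells had 121, 93.8 and 70.0 CPM of *Angpt2* against 29.1 CPM in the others, 3.25-fold higher and called (0.68% of all genes), whereas its *Apln*, 139 against 86.9 CPM, was not called. *Vegfc* was called lower there, at 3.70 CPM and 11.8-fold (6.75% of all genes were called lower).

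In the hippocampus, *Angpt2* again peaked in an unnamed subcluster, of 195 cells, at 102, 39.2 and 58.1 CPM against 5.27 CPM, 12.7-fold higher (1.07% of all genes were called higher). It held 56.9% of the endothelial-like *Angpt2* UMIs, and 21 of its 95 came from 1 cell. Its *Apln* level of 39.4 CPM rested on 1 cell with 43 of 56 UMIs, and its replicates were 102, 4.89 and 12.7 CPM. *Vegfc* had 2 UMIs there, 1.41 against 59.2 CPM in the others (6.37% of all genes were called lower), and *Kdr* was 1010.4 against 630.2 CPM. No hippocampal subcluster had an *Apln* level like that of the cortical subcluster of 121 cells. The cortical one was singled out by that level, and hippocampal endothelial-like cells held only 77 *Apln* UMIs. Whether it had a hippocampal counterpart thus cannot be read from *Apln*. An unnamed hippocampal cluster of 268 cells with all 14 endothelial markers, which held 61 *Apln* UMIs, was not subclustered.

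**Figure D5:**
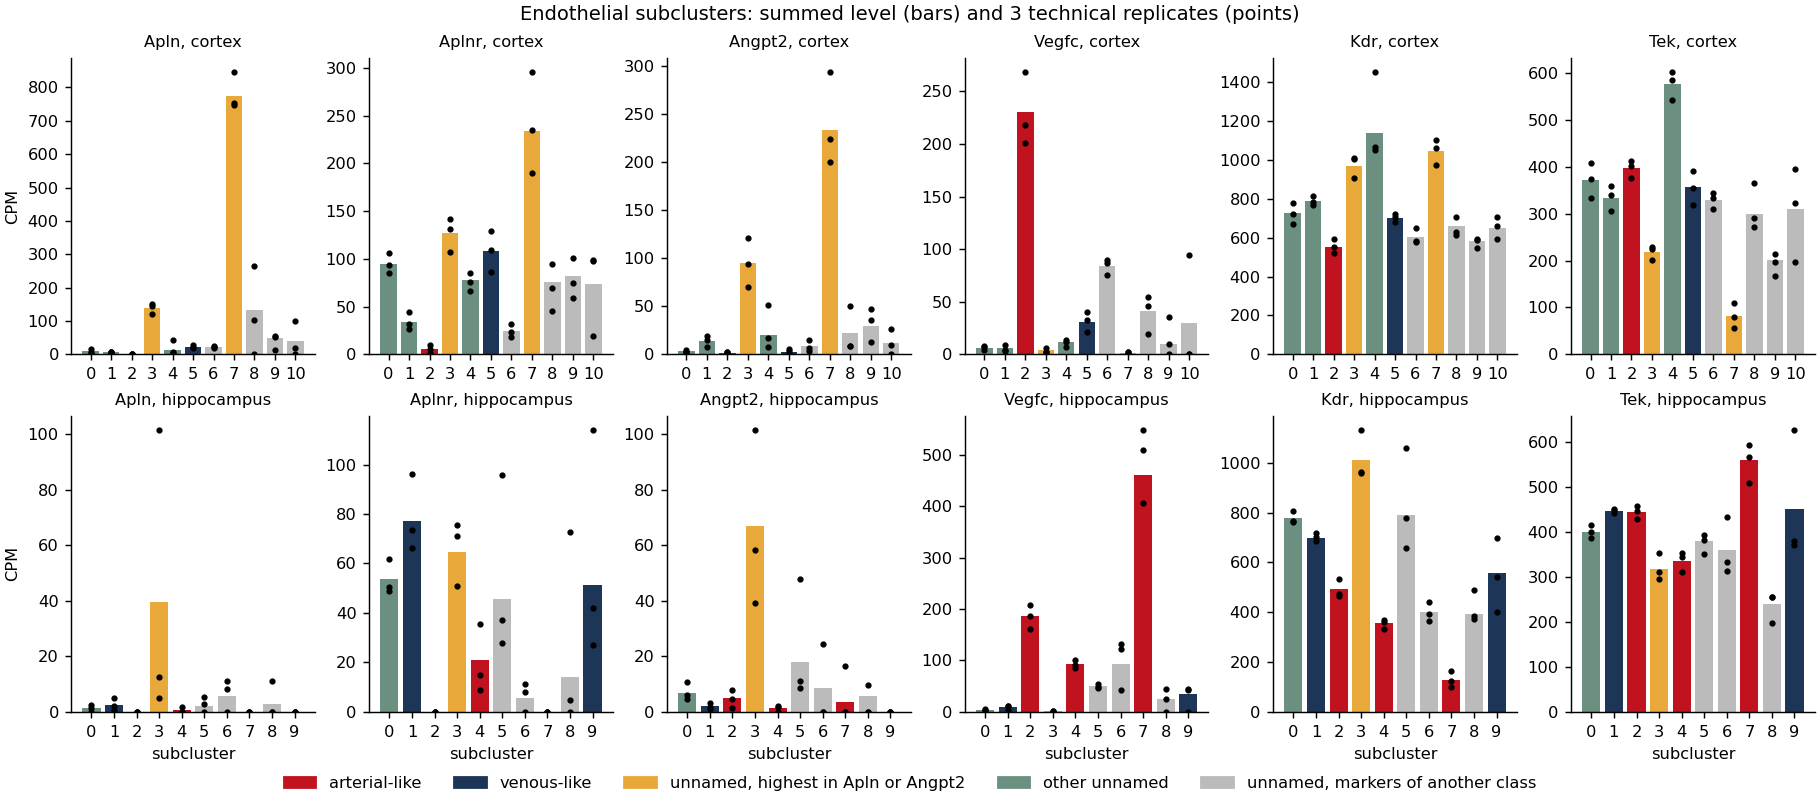
Level of *Apln*, *Aplnr*, *Angpt2*, *Vegfc*, *Kdr* and *Tek* by endothelial subcluster (bars: summed UMIs as CPM, points: 3 technical replicates), cortex and hippocampus. Red bars are arterial-like, navy venous-like, orange the unnamed subclusters highest in *Apln* or *Angpt2*, green the other unnamed ones and grey those that carry markers of another class. The cortical subcluster of 121 cells reaches 774 CPM of *Apln* and 233 CPM of *Angpt2* with 82.6 CPM of *Tek*, and *Vegfc* peaks in the red bars.

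Cell by cell, *Apln* and *Angpt2* occurred together. After thinning to 2000 UMIs, 147 cortical endothelial-like cells had an *Apln* UMI and 2513 had none. *Angpt2* was detected in 27.9% [20.8, 35.9] of the first and 2.19% [1.65, 2.84] of the second, and *Aplnr* in 26.5% [19.6, 34.4] and 11.5% [10.2, 12.8]. *Tek* went the other way, with 26.5% against 48.9% [47.0, 50.9], while *Tie1* (33.3% against 37.0%), *Flt1* (98.0% against 97.2%) and *Flt4* (12.2% against 12.4%) were alike. *Kdr* was detected in 83.0% against 72.4%. Without the subcluster of 121 cells, 78 *Apln* cells remained, and *Angpt2* was found in 14.1% of them against 1.95% of the 2461 others, *Aplnr* in 16.7% [9.18, 26.8] against 11.1% [9.92, 12.4] and *Tek* in 37.2% [26.5, 48.9] against 49.7% [47.7, 51.7]. The intervals of *Angpt2* were then [7.26, 23.8] and [1.44, 2.58]. All these intervals take single cells as the unit and do not give the spread between replicates or animals, so their overlap is not a test. The cells that remained included cells of the subcluster of 238, which was singled out after its *Angpt2* level was seen. In the hippocampus only 6 endothelial-like cells had an *Apln* UMI, too few for such shares.

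Other genes of the pathways were read from 4 lists. Among 7 further VEGF-axis genes, 5 had enough UMIs in endothelial-like cells, of which the FLT4 ligand gene *Vegfd* was called higher in the hippocampus (4.35 to 9.54 CPM) and the FLT1 ligand gene *Pgf* lower (2.97 to 0.663 CPM). Of all genes tested in these cells, 3.58% were called higher and 2.84% lower. *Nrp1*, a co-receptor of VEGF-A, went from 260.96 to 473 CPM in endothelial-like cells, within 2-fold, but was called higher in microglia-like (93.2 to 197 CPM) and macrophage-like cells (187 to 441 CPM). Among all genes tested, 3.72% were called higher in microglia-like and 5.25% in macrophage-like cells. *Pgf* was 73.1 and 134 CPM in VSMC-like cells, which were highest in the hippocampus but overlapped pericyte-like cells (70.3 CPM) in the cortex.

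Of 5 further angiopoietin and apelin genes, 2 had enough UMIs in endothelial-like cells and neither was called. *Ptprb*, a phosphatase that acts on TEK, was 1193 and 1439 CPM there and met the 4-fold rule of the receptors in both tissues. *Angpt1*, the activating ligand of TEK, was 40.6 and 52.2 CPM in VSMC-like cells, which overlapped pericyte-like cells in the cortex (34.2 CPM) and fibroblast-like cells in the hippocampus (51.1 CPM). It was called lower in hippocampal pericyte-like cells, with a log2 ratio of −1.73. Of this list, 2 genes had enough UMIs there and 2 were called lower, as were 3.61% of all genes. The endothelial markers were also lower there, and their part in these calls was not tested. *Angpt1* was called higher in hippocampal astrocyte-like cells (9.87 to 29.98 CPM), as were 5.9% of all genes. *Apela*, which encodes the other ligand of APLNR, had no UMI in endothelial-like cells of either tissue.

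Of 7 genes of the intracellular response to VEGF, 2 were called higher and 1 lower in hippocampal endothelial-like cells, against 3.58% and 2.84% of all genes. *Nr4a1* went from 19.9 to 40.8 CPM and the early response gene *Egr3* from 8.36 to 0.464 CPM. *Esm1*, a tip-cell gene and also 1 of the tip-cell markers, had no UMI in cortical and 136 UMIs (9.01 CPM) in hippocampal endothelial-like cells, at least 71.9-fold higher against a floor of 3 counts over the cortical cells (0.125 CPM). Its direction was thus opposite to that of *Apln* and *Angpt2*. Over all named cells *Esm1* had 5 UMIs in the cortex and 137 in the hippocampus. The tissues were counted with different gene lists, and the part of this in the *Esm1* difference was not tested. *Dll4*, the Notch ligand gene of tip and arterial cells, was 69.4 and 74.2 CPM. Of 10 hypoxia genes that regulate or accompany *Vegfa*, 9 had enough UMIs. *Adm* (118 to 28.0 CPM) and *Ankrd37* (123 to 49.2 CPM) were called lower, as were 2.84% of all genes. *Slc2a1* (2025 and 1730 CPM) and *Epas1* (811 and 1006 CPM) were within 2-fold.

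The genes most like each of the 10 across classes were sought by Pearson correlation of log2(CPM + 5) over 16 points, the 8 classes named in both tissues, among 9524 genes. These points share libraries, and the values describe likeness only. *Tek* was most like *Mecom* (0.996), *Flt4* most like *Slc19a3* (0.994), *Kdr* most like *Srarp* (0.988), *Tie1* most like *Cyyr1* (0.988), *Aplnr* most like *Meox1* (0.985) and *Flt1* most like *Rflnb* (0.979). Among the ligand genes, *Vegfc* was most like *Fat4* (0.954), *Angpt2* most like *Ctgf* (0.949) and *Vegfa* most like *Dtx1* (0.942). *Apln* had the weakest best match, *Ccdc28b* (0.85), and no gene shared its pattern of cortical endothelial-like and astrocyte-like expression as closely as the receptors were matched.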

How the data were processed

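The authors deposited counts of UMIs per gene and cell barcode from 10x single-cell libraries, aligned per the labels to mm10 with Cell Ranger 5.0.1, although the file headers name software versions 3.0.1 (cortex) and 3.1.0 (hippocampus). Total depth was 39662203 to 50024850 UMIs per library. The study's quality limits were applied (250 to 6000 genes, mitochondrial share under 25%, or 15% when subclustering endothelial cells). They were log-normalised, integrated by canonical correlation and clustered on 30 components at a resolution of 0.5 in Seurat 5.3.0 (R 4.3.3), apart for each tissue. A cluster took the class with the largest share of its markers, at least 3 of them in 20% of its cells and 2-fold above the rest. It stayed unnamed where an unrelated class reached 0.5 of that share, where its leading genes were of another class, or where its UMI counts were low without a leading marker. Mural clusters were named at a resolution of 1.0, a choice made after the clusters were seen. Doublets were called but kept. Levels were summed UMIs as CPM over all genes. Ratios have exact conditional intervals, levels Poisson and shares Clopper-Pearson ones. With 1 pool of animals per tissue no p-value was computed. The scripts were tested on simulated data. The 10 genes, markers and pathway lists were chosen with earlier results of these data known. Named genes were the 10, part of those of the 4 lists past a size rule, and the gene most like each. Some calls of list genes are not given, among them some in pericyte-like, VSMC-like, fibroblast-like, microglia-like and macrophage-like cells. The second preparation of the study was not analysed here. Versions were Python 3.11.15, scipy 1.17.1 and scanpy 1.11.5.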

Additional observations from a re-analysis of the deposited data

Results flagged for a closer look

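The log2 ratio of *Angpt2*, hippocampus to cortex, differed in sign between classes. It was 0.67 in fibroblast-like cells, against −1.69 in endothelial-like, −1.53 in pericyte-like, −1.76 in astrocyte-like and −1.17 in microglia-like cells. *Tie1* had a log2 ratio of 0.57 in endothelial-like and −1.34 in pericyte-like cells. In each of these classes the unpaired technical replicates of cortex and hippocampus did not overlap, and the difference between classes was not tested. *Tie1* in pericyte-like cells rested on 24 UMIs in the cortex and 18 in the hippocampus. Its call was lost with any 1 replicate left out and without called doublets. The endothelial markers were also lower in hippocampal pericyte-like cells. The interval of *Angpt2* in fibroblast-like cells, −0.07 to 1.39, includes 0.

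A few clusters that were left unnamed, and so out of every comparison between classes, also held ligands and *Aplnr*. Those of 202 and 180 cells carried endothelial and pericyte markers together, and that of 268 cells carried all 14 endothelial markers but had low UMI counts. *Vegfc* was 45.3 CPM in a cortical cluster of 202 cells, above the 40.1 CPM of endothelial-like cells, and 82.5 CPM in a hippocampal cluster of 180 cells, above 53.7 CPM. A hippocampal cluster of 268 cells had 74.7 CPM of *Apln*, with 26 of 61 UMIs in 1 cell. That was above the 49.6 CPM of astrocyte-like cells and the 5.10 CPM of endothelial-like cells. The same cluster had 53.8 CPM of *Aplnr*, above the 45.8 CPM of endothelial-like cells.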

How the results depend on the processing

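No paired analysis was possible because the results come from no test and the replicate numbers mark technical replicates of separate pools. The endothelial-like log2 ratios of *Vegfa* (main value 0.07) and *Flt4* (−0.01), which were near 0 and not called, changed sign with a replicate left out, between −0.29 and 0.52 and between −0.06 and 0.08, and under the mean over cells (−0.14 and 0.02), *Flt4* also at a resolution of 1.0 (0.02) and with cells classed singly (0.01). The other 8 endothelial-like log2 ratios kept their sign under each alternative that gave a value, and both endothelial-like calls between the tissues (*Apln*, *Angpt2*) held under each alternative that gave a value. The mural naming, the clusters and subclusters left out and the co-detection alternatives were chosen after seeing the data.

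The count of the 10 genes at least 4 times higher in cortical endothelial-like cells was 1 (of 24 genes) at a resolution of 0.2, 3 (of 131) at 1.0 and 2 (of 128) without integration. A rule of 2 times called 525 and 461 genes. Between tissues, 1.5-fold called 1746 genes in endothelial-like cells and *Angpt2* as the 1 in fibroblast-like cells, and no UMI filter gave 1354 genes. *Flt1* was 1 call in macrophage-like cells at 1.0. Pericyte-like cells kept 1 call with cells classed singly and 1 without integration. Astrocyte-like cells kept 1 with cells classed singly, without called doublets and by mean over cells, and had 4 (*Kdr*, *Flt1*, *Tek*, *Tie1*) under a mitochondrial limit of 10%. The astrocyte-like share of cortical *Vegfa* was 96.6% with cells classed singly and 86.8% (hippocampus 71.9%) at the 10% limit. The endothelial-like share of cortical *Apln* was 53.9% at 0.2, 76.8% at the 10% limit and 53.6% without subclusters that carried markers of another class. At a subcluster resolution of 0.3 the highest cortical *Apln* was 496 CPM (247 cells) and the highest hippocampal *Vegfc* 173 CPM (429 cells). Detection of *Kdr* in endothelial-like cells was 95.3% and 93.8% without thinning and 73.0% and 68.0% at 2000 UMIs, and that of *Vegfa* in astrocyte-like cells 67.3% and 62.7%, and 50.02% and 40.5%. The *Angpt2* detection difference by *Apln* was 25.7 points, and 12.2 without the highest subcluster. The causes were not tested.

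With 1 replicate left out, calls ran from 0 to 2 in VSMC-like (*Kdr* and *Flt1* without replicate 1), 0 to 1 in macrophage-like (*Flt1*, without replicate 1), 0 to 1 in fibroblast-like (*Vegfa*, without replicate 2) and 0 to 1 in microglia-like cells. At this depth, levels that rest on 3 UMIs or fewer could not be ranked.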
